A study of Rattus norvegicus with 12 samples.

Results

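The nuclear-encoded subunits of oxidative phosphorylation were examined in rat ovary RNA-seq data. Members were taken by gene name: every gene whose name began as a complex I subunit (Nduf with the letter a, b, c, s or v and a digit), as succinate dehydrogenase (Sdha to Sdhd), as a complex III subunit (Uqcr, Cyc1), as a cytochrome c oxidase subunit (Cox4 to Cox8) or as an ATP synthase subunit (Atp5), with a mean of at least 1 FPKM over the 12 libraries. FPKM counts fragments per kilobase of transcript, scaled to the mapped fragments of the library, and is a level per length. Of the 19730 genes in the table, 85 had such a name and 81 reached the minimum, 36 in complex I, 4 in complex II, 10 in complex III, 15 in complex IV and 16 in complex V. The 4 names below the minimum were Cox6a2, Cox7a1, Cox8c and Ndufa10l1. Ovaries of wild type Sprague Dawley rats, 15 weeks old, gave 4 libraries in each of 3 groups. Control rats were untreated and, by the study's methods, ate standard food. PCOS rats, a model of polycystic ovary syndrome, received the aromatase inhibitor letrozole for 30 days together with a high-fat diet, so the drug and the diet cannot be told apart here. PCOS-MV rats received the same and then mogroside V, a sweet triterpene glycoside of monk fruit, for 30 days. By the study's methods all rats were killed after that second period, so PCOS ovaries too were taken after letrozole had ended. The methods describe no vehicle for the PCOS rats in that period.

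Oxidative phosphorylation takes place in the inner mitochondrial membrane. Complex I oxidises NADH and complex II oxidises succinate, both pass electrons to ubiquinone, complex III carries them on to cytochrome c and complex IV to oxygen, and the proton gradient so built drives ATP synthase, complex V. All subunits of complex II and most of the others are made from nuclear genes, while a small core of complexes I, III, IV and V comes from mitochondrial DNA. In the ovary, mitochondria also house the first step of steroid synthesis, and luteal cells, granulosa cells and oocytes are rich in them.

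The 81 members were expressed in every group. Their mean levels over the 12 libraries ran from 2.51 FPKM for Cox8b to 620 FPKM for Atp5f1b, the catalytic beta subunit of ATP synthase. The median member stood at 51.5 FPKM in complex I, 99.9 in complex II, 81.2 in complex III, 86.7 in complex IV and 109 in complex V. In complex IV the highest was Cox4i1 at 268 FPKM, and in complex III it was Uqcrfs1, the Rieske iron-sulfur protein, at 126 FPKM. The name Uqcrb belonged to 2 genes, on chromosomes 1 and 7, and so did Cox6b1, on chromosomes 1 and 2. The Uqcrb gene of chromosome 1 and the Cox6b1 gene of chromosome 2 span no more bases than their listed transcripts, so these 4 values may share reads and are uncertain.

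The summed level of all members overlapped between the groups. In Control replicates 1 to 4 the sum was 8183, 6977, 5907 and 6100 FPKM, in PCOS replicates 6357, 6860, 6177 and 6831 FPKM, and in PCOS-MV replicates 7361, 6776, 6241 and 7089 FPKM. Control replicate 1 stood highest of the 12. Depth, estimated from the spacing of low FPKM values, was 30.3 to 37.1 M (mega) fragments per library. That library was the highest of the 4 controls for 72 of the 81 members, while Control replicate 3 was the lowest for 42 and Control replicate 4 for 36. Over the members its median deviation from the control mean was 0.27 on the log2 scale, and over the 13430 genes tested it was -0.03. The same library was the highest control for 53 of 75 mitochondrial ribosomal protein genes, whose products make the subunits encoded by mitochondrial DNA. PCOS-MV replicate 3 was the lowest of its group for 53 of 81 members, with a median deviation of -0.17. The median SD between rats, taken over members on the log2 scale, was 0.23 in Control, 0.12 in PCOS and 0.16 in PCOS-MV, against 0.18, 0.13 and 0.17 over all genes tested. Results below that change without one of these libraries are given with and without it.

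**Figure D1:**
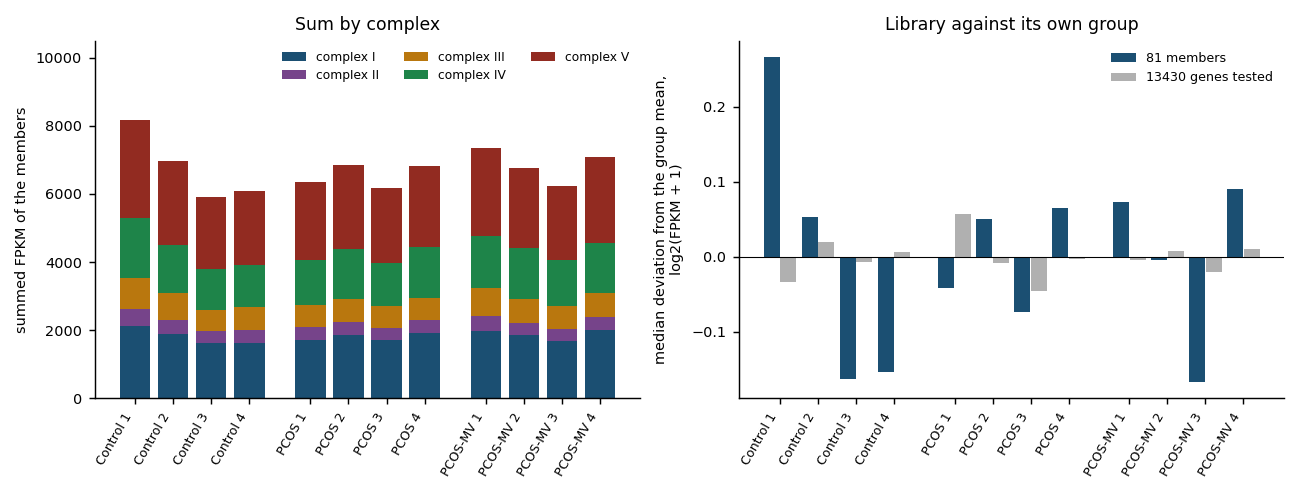
Left, summed FPKM of the 81 members in each of the 12 libraries, stacked by complex. Right, median deviation of each library from its own group's mean on the log2(FPKM + 1) scale, for the members (blue) and for the 13430 genes tested (grey). Control replicate 1 has the highest sum, 8183 FPKM, and the largest deviation of the members, 0.27.

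The first comparison, PCOS with Control, asked which genes differ in ovaries of the disease model. Members changed in both directions, and most did not pass. Of the 81 members, 4 were higher in PCOS, 9 were lower and 68 did not pass the test (limma on log2(FPKM + 1), adjusted p under 0.05 over all genes tested). Members called made up 16% of the 81, and 27.4% of all 13430 genes tested were called, 11.9% higher and 15.6% lower. The median member differed by 0.01 on the log2 scale (-0.02 after each library was rescaled to the same sum), and the median gene by -0.03. In whole ovaries, fewer cells of a type and less RNA per cell cannot be told apart. The groups did not overlap for 14 of 81 members, and for 31% of all genes tested. At an unadjusted p under 0.05 there were 21 members, against 39.4% of all genes. Counts by complex, higher then lower, were 3 and 4 of 36 in complex I, 0 and 1 of 4 in complex II, 1 and 1 of 10 in complex III, 0 and 2 of 15 in complex IV, and 0 and 1 of 16 in complex V. The 95% interval of the difference lay within 1 on the log2 scale on either side of 0 for 72 of 81 members, and within 0.5 for 41. Without Control replicate 1, 9 members were called higher in place of 4, without PCOS replicate 2 there was 1, and without PCOS replicate 4 there were 2. With the rescaling to the same sum, 15 members were lower in place of 9.

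**Figure D2:**
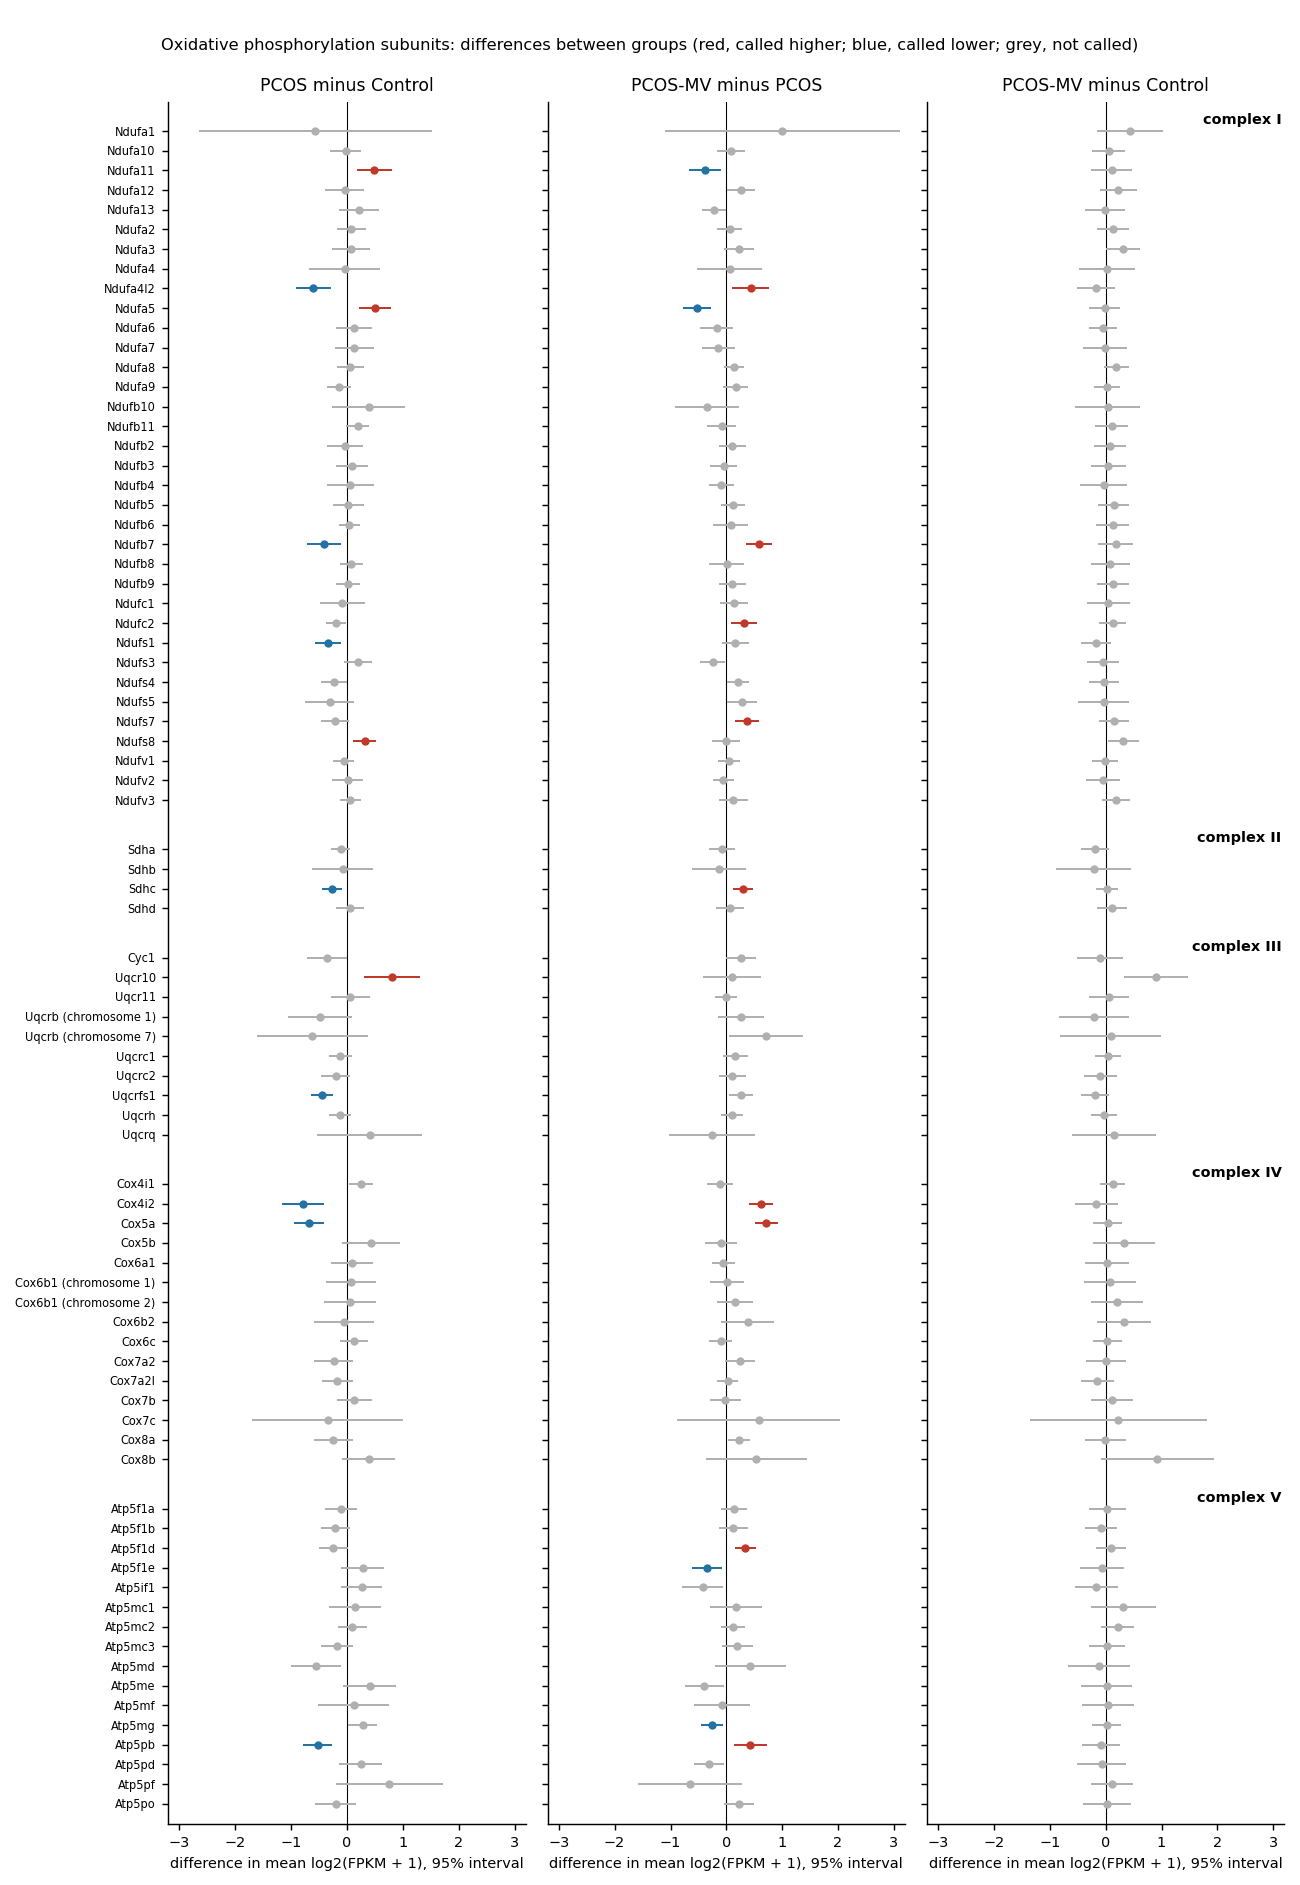
Difference in mean log2(FPKM + 1) of 80 of the 81 members with its 95% interval, in the 3 comparisons, ordered by complex. Red marks members called higher and blue members called lower. The calls drawn are 4 and 8 in PCOS against Control, 9 and 4 in PCOS-MV against PCOS, and none in PCOS-MV against Control.

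Cox5a had the smallest adjusted p of all members, both here and in PCOS-MV against PCOS. It encodes a small subunit of cytochrome c oxidase that lies on the matrix side of the enzyme, and its gene (ENSRNOG00000018816) spans 62298358 to 62309765 of chromosome 8 in the deposited table, in a build not given in the sources used here. In Control replicates 1 to 4 it stood at 127, 105, 96.4 and 94.8 FPKM, and in PCOS replicates at 62.1, 70.7, 59.2 and 68.3 FPKM. Every control library was above every PCOS library. The difference was -0.69 on the log2 scale (SE 0.11, limma adjusted p = 0.0021), and it was called in each of the 8 fits that left out 1 library. In PCOS-MV the values were 103, 102, 118 and 107 FPKM, all above the PCOS libraries. PCOS-MV exceeded PCOS by 0.72 (SE 0.083, limma adjusted p = 6.9e-04), again in each of 8 fits. Against Control, PCOS-MV differed by 0.03 with a 95% interval from -0.22 to 0.28.

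Cox4i2 is the isoform of cytochrome c oxidase subunit 4 known from lung, pericytes and low oxygen, and Cox4i1 is the isoform found in most cells. Cox4i2 read 6.90, 6.28, 3.89 and 6.75 FPKM in Control, 2.67, 2.97, 3.18 and 3.05 FPKM in PCOS and 4.78, 5.62, 4.66 and 5.36 FPKM in PCOS-MV. The PCOS libraries lay below all others. The difference was -0.79 (SE 0.15, limma adjusted p = 0.0062) for PCOS against Control and 0.62 (SE 0.085, limma adjusted p = 0.0015) for PCOS-MV against PCOS, and both were called in each of 8 fits. Cox4i1 read 263, 247, 240 and 229 FPKM in Control, 281, 312, 262 and 307 FPKM in PCOS and 277, 263, 242 and 287 FPKM in PCOS-MV. These ranges met, and its differences of 0.24 (limma adjusted p = 0.064) and -0.12 (limma adjusted p = 0.38) did not pass. Cox4i2 therefore made up 2.37% ± 0.54 of the FPKM of both isoforms in Control, 1.02% ± 0.12 in PCOS and 1.88% ± 0.17 in PCOS-MV (mean ± SD, n = 4). The lowest control share, 1.59%, was above the highest PCOS share, 1.199%.

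Complex I, under which Ndufa4 and Ndufa4l2 are counted here by name, held 7 of the 13 calls. Ndufa4l2 is a paralogue of Ndufa4 that is known to be induced at low oxygen, and Ndufa4 itself, in spite of its name, is counted today as a subunit of complex IV. Ndufa4l2 read 3.51, 3.78, 3.61 and 4.93 FPKM in Control and 2.65, 1.76, 2.14 and 2.52 FPKM in PCOS, without overlap. The difference was -0.60 (SE 0.13, limma adjusted p = 0.0095). In PCOS-MV it read 2.61, 3.24, 4.12 and 3.74 FPKM, of which the first fell inside the PCOS range. Its rise over PCOS was 0.43 (limma adjusted p = 0.047), and it was called in 1 of 8 fits, the one without PCOS-MV replicate 1, with the adjusted p reaching 0.119 in the others. Ndufa4 varied from 30.7 to 64.0 FPKM within PCOS alone, and its differences of -0.04 and 0.06 did not pass (limma adjusted p = 0.93 and 0.89).

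Ndufb7 is an accessory subunit at the far end of the membrane arm. It read 68.7, 56.3, 60.6 and 46.2 FPKM in Control, 41.95, 46.9, 38.0 and 45.9 FPKM in PCOS and 69.6, 65.7, 56.7 and 68.9 FPKM in PCOS-MV. Control replicate 4 fell within the PCOS range, and the fall of -0.41 (limma adjusted p = 0.041) was called only without that library, being lost in the other 7 fits with an adjusted p of up to 0.103. The PCOS-MV libraries were all above the PCOS libraries, and that rise of 0.58 (SE 0.095, limma adjusted p = 0.0032) was called in all 8 fits.

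Among the subunits that hold the redox centres of the arm facing the matrix, Ndufs1, the largest, with iron-sulfur clusters, read 69.8, 59.2, 55.0 and 58.3 FPKM in Control and 53.0, 46.2, 43.8 and 47.5 FPKM in PCOS. It fell by 0.34 on the log2 scale (limma adjusted p = 0.028), but the call was lost in 4 of 8 fits, those without Control replicate 2 and without PCOS replicate 2, 3 or 4, with an adjusted p of up to 0.0747. Its PCOS-MV values of 47.3 to 62.2 FPKM overlapped both groups. Ndufv1, which carries the flavin that takes up electrons from NADH, differed by -0.06 (95% interval -0.24 to 0.11) between PCOS and Control and by 0.05 (-0.12 to 0.23) between PCOS-MV and PCOS. Ndufs8, an iron-sulfur subunit, read 46.9 to 56.7 FPKM in Control and 61.0 to 70.7 FPKM in PCOS, a rise of 0.32 (limma adjusted p = 0.020) that was lost without PCOS replicate 2 or 4 (adjusted p up to 0.0642). In PCOS-MV it read 54.7 to 75.1 FPKM, and the difference from PCOS was -0.01 (95% interval -0.25 to 0.23).

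The other complex I members that rose in PCOS were the accessory subunits Ndufa5 and Ndufa11. Ndufa5 read 42.1, 37.7, 32.0 and 31.4 FPKM in Control, 43.0, 53.5, 53.8 and 53.3 FPKM in PCOS and 33.9, 38.0, 30.8 and 38.0 FPKM in PCOS-MV. The PCOS libraries were above all others, PCOS replicate 1 only just. It was higher in PCOS by 0.50 (SE 0.12, limma adjusted p = 0.013) and lower in PCOS-MV than in PCOS by -0.52 (SE 0.10, limma adjusted p = 0.0076), each in 8 of 8 fits. Ndufa11 read 58.6, 51.0, 39.9 and 42.1 FPKM in Control, 61.4, 70.0, 62.6 and 73.9 FPKM in PCOS and 51.0, 54.7, 41.3 and 58.8 FPKM in PCOS-MV. Again the PCOS libraries lay above the rest. Its rise of 0.49 (limma adjusted p = 0.022) was lost without Control replicate 4, PCOS replicate 2 or PCOS replicate 4 (adjusted p up to 0.0670), and its fall of -0.38 (limma adjusted p = 0.043) held only in the fit without PCOS-MV replicate 4, the adjusted p reaching 0.114 in the other 7.

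**Figure D3:**
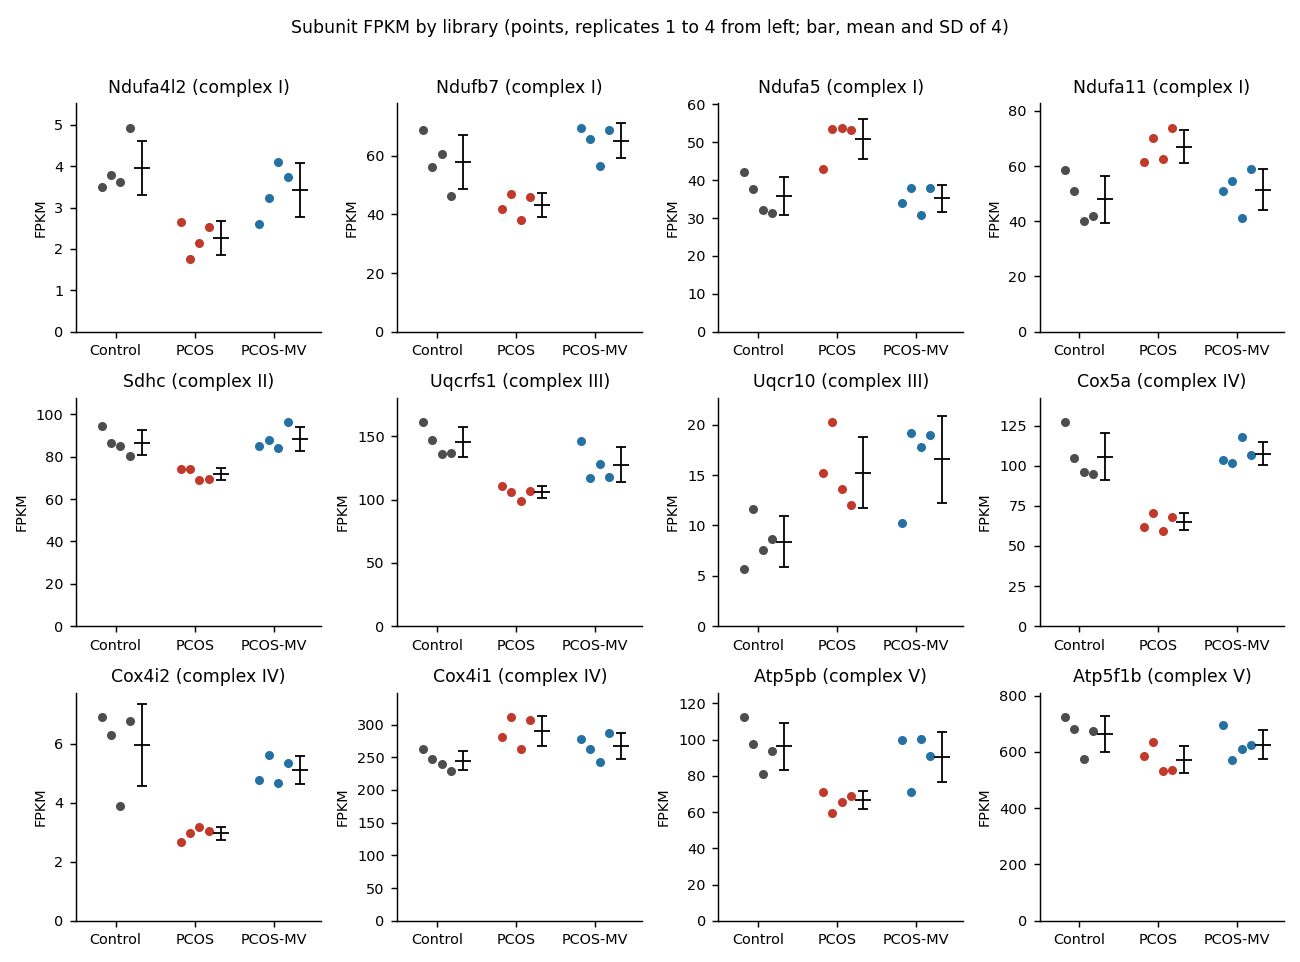
FPKM of 12 members in each library, replicates 1 to 4 from left to right in each group, with the mean and SD of 4 beside them. The PCOS libraries lie below all others for Sdhc, Uqcrfs1, Cox5a and Cox4i2 and above all others for Ndufa5 and Ndufa11, while the groups overlap for Cox4i1 and Atp5f1b.

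Promoters of the members were read from RefSeq for 67 of the 81 by symbol, as 250 bases before to 50 after the start site in the build GRCr8. Shown are 2 members called lower in PCOS, Cox5a (chr8:66818034-66818333, plus strand) and Ndufb7 (chr19:41477242-41477541, minus strand), and 2 called higher, Ndufa5 (chr4:53971186-53971485, minus strand) and Ndufa11 (chr9:1637364-1637663, plus strand). As given above, the calls of Ndufb7 and Ndufa11 were lost in some of the fits that left out 1 library. Each is written 5′ to 3′ on the gene's strand, with capitals marking a match to one of 5 motifs known for genes of the respiratory chain.
Cox5a: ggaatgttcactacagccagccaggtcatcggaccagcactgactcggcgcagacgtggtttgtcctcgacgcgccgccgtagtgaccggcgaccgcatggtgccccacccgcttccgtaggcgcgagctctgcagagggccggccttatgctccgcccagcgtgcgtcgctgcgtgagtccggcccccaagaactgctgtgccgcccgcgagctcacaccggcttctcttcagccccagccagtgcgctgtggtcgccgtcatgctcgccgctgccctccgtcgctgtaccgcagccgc
Ndufb7: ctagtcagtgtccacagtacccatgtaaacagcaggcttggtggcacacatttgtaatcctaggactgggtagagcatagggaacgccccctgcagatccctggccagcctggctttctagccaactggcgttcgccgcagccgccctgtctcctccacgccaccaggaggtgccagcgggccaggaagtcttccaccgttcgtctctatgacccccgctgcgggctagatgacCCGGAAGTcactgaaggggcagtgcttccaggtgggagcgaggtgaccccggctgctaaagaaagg
Ndufa5: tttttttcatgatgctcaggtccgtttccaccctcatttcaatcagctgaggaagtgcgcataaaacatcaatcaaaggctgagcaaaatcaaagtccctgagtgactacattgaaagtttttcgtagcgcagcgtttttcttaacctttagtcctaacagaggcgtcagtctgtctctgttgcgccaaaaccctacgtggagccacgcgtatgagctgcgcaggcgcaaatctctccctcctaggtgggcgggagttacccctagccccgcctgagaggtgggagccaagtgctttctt
Ndufa11: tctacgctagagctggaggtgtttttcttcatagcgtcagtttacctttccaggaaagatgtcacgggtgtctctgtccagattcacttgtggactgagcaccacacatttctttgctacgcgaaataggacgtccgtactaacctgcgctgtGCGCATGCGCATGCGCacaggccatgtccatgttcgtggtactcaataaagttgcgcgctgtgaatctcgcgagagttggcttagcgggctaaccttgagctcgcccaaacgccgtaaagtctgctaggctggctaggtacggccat
The motifs were searched on both strands in all 27457 RefSeq promoters of the same length. The NRF1 motif, a palindrome that reads the same on both strands, was in 4 of the 67 member promoters (5.97%) and in 0.932% of all promoters, and the capitals in Ndufa11 are 2 overlapping copies of it. The GABP or ETS motif CCGGAAGT was in 8 (11.9%, against 4.01%), Ndufb7 among them. The YY1 motif AAGATGGCG was in 9 (13.4%, against 1.93%), the ERR motif TCAAGGTCA in 2 (2.99%, against 0.412%) and the CRE motif TGACGTCA, which also reads the same on both strands, in 4 (5.97%, against 1.91%). In all, 26 of 67 member promoters held at least 1 of these letter strings. Cox5a and Ndufa5 held none, and the matches of Ndufb7 and Ndufa11 were to different motifs. Whether a motif goes with a direction of change was not tested. The median GC content was 56.3% in the members' promoters and 52.3% in all promoters. A match is a description of the sequence and not a binding site measured here.

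In complex II, which also serves the citric acid cycle, the membrane anchor Sdhc changed. It read 94.7, 86.5, 85.1 and 80.5 FPKM in Control, 74.4, 74.3, 68.9 and 69.5 FPKM in PCOS and 85.0, 87.9, 84.1 and 96.2 FPKM in PCOS-MV, so the PCOS libraries were lowest. The fall of -0.27 (limma adjusted p = 0.025) was lost in 4 of 8 fits, those without Control replicate 2 and without PCOS replicate 2, 3 or 4 (adjusted p up to 0.0744). The rise of 0.29 in PCOS-MV over PCOS (limma adjusted p = 0.016) was lost only without PCOS replicate 4 (adjusted p = 0.0521). The flavoprotein Sdha read 130, 125, 118 and 130 FPKM in Control, 122, 118, 113 and 111 FPKM in PCOS and 122, 92.5, 118 and 110 FPKM in PCOS-MV. Its differences were -0.12 (95% interval -0.27 to 0.04) and -0.07 (-0.29 to 0.14). The iron-sulfur subunit Sdhb was the most variable of the complex, with 91.7 to 209 FPKM in Control and 103 to 191 FPKM in PCOS-MV, and its differences of -0.08 and -0.14 did not pass (limma adjusted p = 0.83 and 0.66). Sdhd did not pass in either comparison.

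The 10 members of complex III together made up 0.188% to 0.241% of all FPKM in Control, 0.173% to 0.183% in PCOS and 0.191% to 0.219% in PCOS-MV, so the PCOS libraries lay below all others. In summed FPKM the PCOS range of 634 to 662 met that of Control (639.7 to 899) and lay below that of PCOS-MV (678 to 799). These sums were not tested. The shares of the other complexes overlapped between the groups. Uqcrfs1 read 161, 147, 136 and 137 FPKM in Control, 110, 106, 99.0 and 107 FPKM in PCOS and 147, 117, 128 and 117 FPKM in PCOS-MV. Each PCOS library was below each library of the other groups. The fall was -0.45 (SE 0.078, limma adjusted p = 0.0032), in 8 of 8 fits, while the difference of 0.26 in PCOS-MV against PCOS missed the threshold (limma adjusted p = 0.060). Uqcr10, a small subunit beside cytochrome c1, read 5.67, 11.6, 7.60 and 8.67 FPKM in Control, 15.2, 20.2, 13.6 and 11.99 FPKM in PCOS and 10.2, 19.2, 17.8 and 19.0 FPKM in PCOS-MV. It was higher in PCOS than in Control by 0.80 (limma adjusted p = 0.022), a call lost without PCOS replicate 1 or 2 (adjusted p up to 0.0567), and PCOS-MV differed from PCOS by 0.10 (95% interval -0.40 to 0.60). Cyc1, cytochrome c1, read 107, 88.0, 67.1 and 69.8 FPKM in Control and 58.6 to 69.1 FPKM in PCOS, a difference of -0.36 that missed the threshold (limma adjusted p = 0.11). The core protein Uqcrc1 differed by -0.12 and 0.16 (limma adjusted p = 0.30 and 0.23). The Uqcrb gene of chromosome 7, second in this complex by adjusted p in PCOS-MV against PCOS, read 5.91, 13.0, 4.59 and 6.23 FPKM in PCOS and 16.7, 12.1, 9.01 and 10.97 FPKM in PCOS-MV (0.71, limma adjusted p = 0.10).

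In complex V, 1 member passed. Atp5pb, subunit b of the peripheral stalk, read 112, 97.8, 81.2 and 93.6 FPKM in Control, 71.2, 59.7, 65.8 and 69.1 FPKM in PCOS and 99.9, 71.0, 101 and 91.0 FPKM in PCOS-MV. All controls were above all PCOS libraries, and PCOS-MV replicate 2 touched the PCOS range. The fall was -0.52 (SE 0.11, limma adjusted p = 0.0075), in 8 of 8 fits. The rise in PCOS-MV over PCOS was 0.43 (limma adjusted p = 0.031), called in 2 of 8 fits, those without PCOS replicate 1 or without PCOS-MV replicate 2, with an adjusted p of up to 0.0850 in the others. The subunits of the catalytic head did not pass. Atp5f1a, the alpha subunit, differed by -0.11 (95% interval -0.37 to 0.16) and 0.13 (-0.09 to 0.35), and Atp5f1b by -0.21 (-0.45 to 0.03) and 0.13 (-0.11 to 0.36). Atp5md, a small subunit of the membrane part also called DAPIT, read 21.1, 17.1, 15.7 and 15.4 FPKM in Control and 11.2, 7.65, 15.3 and 12.5 FPKM in PCOS, without overlap, and narrowly missed the threshold (-0.56, limma adjusted p = 0.058).

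The second comparison, PCOS-MV with PCOS, asked what differs after mogroside V. It shares the 4 PCOS libraries with the first, so a PCOS library that is high or low by chance moves both, and the 2 sets of values are given side by side only. Of the 81 members, 10 were higher in PCOS-MV, 4 were lower and 67 did not pass. Members called made up 17.3%, and 25.7% of all genes tested were called, 14.3% higher and 11.4% lower. The median member differed by 0.11 and the median gene by 0.03. The groups did not overlap for 15 of 81 members, against 30% of all genes tested, and 26 members had an unadjusted p under 0.05, against 38.5% of all genes. Higher and lower calls numbered 5 and 2 of 36 in complex I, 1 and 0 of 4 in complex II, 0 and 0 of 10 in complex III (3 at an unadjusted p under 0.05), 2 and 0 of 15 in complex IV, and 2 and 2 of 16 in complex V. Rescaling the libraries by their median ratio moved the split to 9 higher and 6 lower. Lower calls were 7 without PCOS replicate 1 and 1 without PCOS replicate 2, 3 or 4 or without PCOS-MV replicate 2 or 3, and higher calls were 6 without PCOS replicate 4.

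Beside the members already described, ATP synthase gave both directions in this comparison. Atp5f1d, the delta subunit of the central stalk, read 104, 97.7, 91.0 and 96.3 FPKM in PCOS and 127, 126, 112 and 128 FPKM in PCOS-MV, with no overlap. It rose by 0.34 (SE 0.075, limma adjusted p = 0.013), in 8 of 8 fits. Atp5f1e, the epsilon subunit of the same stalk, read 173, 224, 193 and 197 FPKM in PCOS and 165, 164, 132 and 156 FPKM in PCOS-MV. Its fall of -0.35 (limma adjusted p = 0.044) was called in 1 of 8 fits, the one without PCOS replicate 1, and the adjusted p reached 0.115 in the others. Atp5mg, subunit g of the membrane part, read 233 to 276 FPKM in PCOS and 208 to 222 FPKM in PCOS-MV, a fall of -0.26 (limma adjusted p = 0.039) called in 2 of 8 fits, those without PCOS replicate 1 or PCOS-MV replicate 1, and with an adjusted p of up to 0.110 in the rest. Also called in complex I, and named after their values were seen, were these: Ndufs7, an iron-sulfur subunit, at 0.37 (limma adjusted p = 0.013, 8 of 8 fits), and Ndufc2, an accessory subunit, at 0.32 (limma adjusted p = 0.036), the latter called in 2 of 8 fits, those without PCOS-MV replicate 1 or 3, with an adjusted p of up to 0.0891 in the rest.

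Permuting the 8 rats of a comparison over its groups, exactly and two-sided, cannot give a p below 0.0286 for a single member. In this exact permutation test that smallest value was reached by 12 of the 13 members called in PCOS against Control, Ndufb7 being the exception at p = 0.0571, and by 12 of the 14 called in PCOS-MV against PCOS, the exceptions being Ndufa4l2 and Atp5pb, each at p = 0.0571. The smallest value means that the groups did not overlap, which held for 31% and 30% of all genes tested. The members were called on the same values and these p are not adjusted, so they add no separate support.

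The third comparison, PCOS-MV with Control, called 0 of 81 members by limma, and 1 of 13430 genes in all (0.00745%). At an unadjusted p under 0.05 there were 3 members, against 8.5% of all genes tested. No member separated the 2 groups, while 5.1% of all genes did. The 3 members were Uqcr10 (0.90, 95% interval 0.34 to 1.46), Ndufs8 (0.31, 0.05 to 0.57) and Ndufa3 (0.30, 0.02 to 0.59). The interval of the difference lay within 1 on either side of 0 for 77 of 81 members, the other 4 being Ndufa1, Uqcr10, Cox7c and Cox8b. The member changes called in the other comparisons were all smaller than 1, so this margin does not exclude changes of their size. Within 0.5 lay the intervals of 61 of 81 members, against 59.5% of all genes tested. For Cox8b (0.93, -0.06 to 1.91) and Cox7c (0.23, -1.34 to 1.80) these rats did not exclude a difference larger than 1 on this scale.

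The tissue isoforms of complex IV other than Cox4i2 gave no calls. Cox6a2 and Cox7a1, the heart and muscle isoforms, were near 0 beside Cox6a1 and Cox7a2, with a share of at most 0.290% and 0.250% of their pair in any library. Cox8b, another heart, muscle and brown fat isoform, read 2.36, 1.48, 0.66 and 1.18 FPKM in Control, 1.76, 2.16, 2.10 and 2.29 FPKM in PCOS and 5.75, 3.57, 0.82 and 6.02 FPKM in PCOS-MV, beside 151 to 254 FPKM of Cox8a. Within PCOS-MV, 3 libraries were above every other library of the study and replicate 3 was below all PCOS libraries, and no comparison passed (limma adjusted p = 0.19, 0.34 and 0.60). Summed FPKM of the 6 white adipocyte markers was 33.7 to 107 in Control, 15.7 to 28.2 in PCOS and 18.4 to 48.2 in PCOS-MV. Fabp4 averaged 2.15 FPKM in PCOS and 19.7 in PCOS-MV, while Adipoq averaged 1.52 and 1.27 and Cfd 17.0 and 12.7. Among brown adipocyte markers, Cidea averaged 4.21 FPKM in Control, 1.57 in PCOS and 5.29 in PCOS-MV. Ppargc1a averaged 0.83, 0.43 and 0.41 FPKM. Cox6b2, the testis isoform, made up 2.31% to 5.27% of Cox6b1 and Cox6b2 in all libraries and did not pass. Cox6a1, Cox7a2, the assembly-linked Cox7a2l and Cox8a differed by -0.24 to 0.08 between PCOS and Control and by -0.05 to 0.24 between PCOS-MV and PCOS, none of them called. The 3 genes for the same c subunit of the ATP synthase rotor, Atp5mc1, Atp5mc2 and Atp5mc3, held shares of 19.97%, 40.3% and 39.7% in Control, 21.9%, 43.1% and 35.01% in PCOS and 22.3%, 41.8% and 35.9% in PCOS-MV, and none of them was called in any comparison.

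The subunits encoded by mitochondrial DNA, which have no Nduf, Uqcr, Cox or Atp5 name in this file and are no members, were counted by themselves. Of the 13 genes, 12 were tested, since ATP8 was under the minimum. In PCOS against Control 0 were called by limma (3 at an unadjusted p under 0.05), with a median difference of 0.41. In PCOS-MV against PCOS 7 were lower and 0 higher, beside 11.4% of all genes that were lower, with a median of -0.56. ND2, a membrane subunit of complex I, read 372, 422, 203 and 248 FPKM in Control, 386, 364, 647 and 502 FPKM in PCOS and 257, 236, 218 and 231 FPKM in PCOS-MV. Every PCOS library was above every PCOS-MV library, and the control libraries spread over both. The fall was -0.98 (SE 0.18, limma adjusted p = 0.0054). COX2, the copper-bearing core subunit of complex IV, read 1239, 1254, 1809 and 1656 FPKM in PCOS and 775, 865, 812 and 940 FPKM in PCOS-MV, a fall of -0.80 (limma adjusted p = 0.0074). The other 5 called were ND1, ND3, ND4, ND5 and ND6, by -0.39 to -0.78. COX1, the catalytic subunit of complex IV and the highest of them, read 5754 to 6495 FPKM in PCOS and 5414 to 6239 FPKM in PCOS-MV and was not called. Lower calls numbered 4 to 7 when 1 library was left out, 4 without PCOS replicate 4 or without PCOS-MV replicate 3. ATP6 was listed at 0.07 to 0.10 FPKM in 11 libraries and at 286 FPKM in PCOS-MV replicate 3. It passed the minimum only through that library, it overlaps ATP8, and its values are not read as expression. In PCOS-MV against Control 0 of the 12 were called by limma (1 at an unadjusted p under 0.05).

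**Figure D4:**
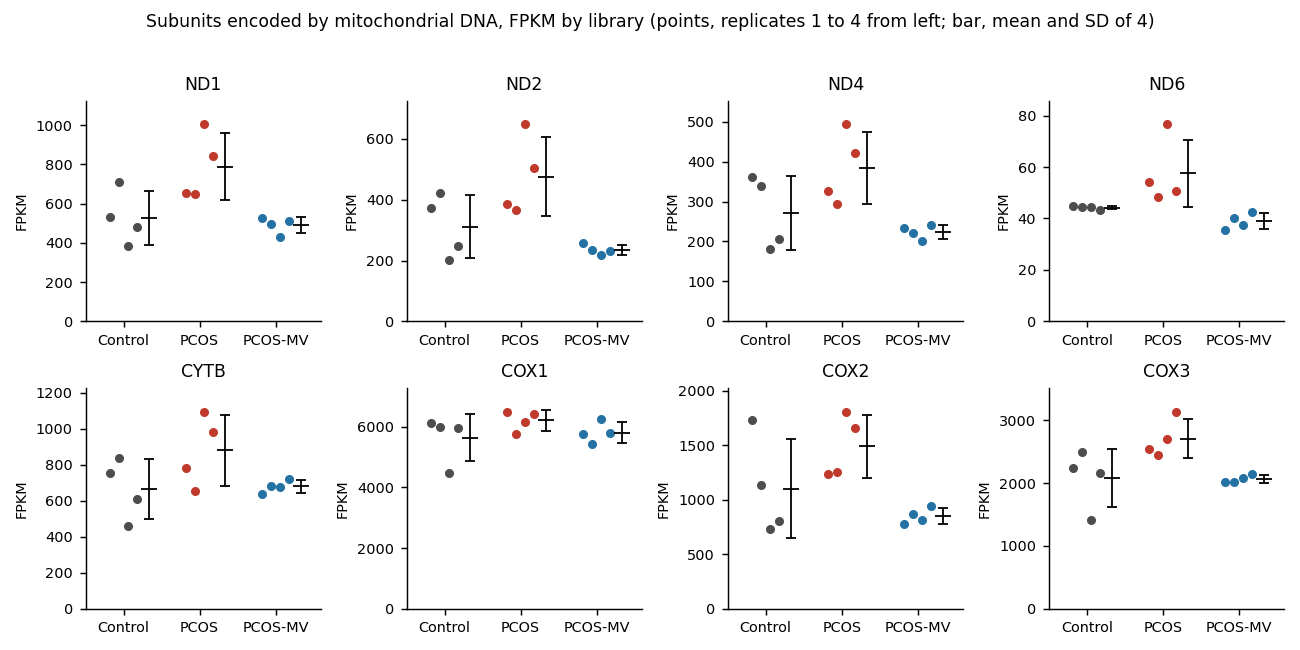
FPKM of 8 subunits encoded by mitochondrial DNA in each library, replicates 1 to 4 from left to right in each group, with the mean and SD of 4 beside them. For ND1, ND2, ND4, ND6, COX2 and COX3 every PCOS-MV library lies below every PCOS library, while COX1 overlaps.

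Genes that build or feed the complexes were counted in the same way. Of all genes tested, 27.4% were called in PCOS against Control and 25.7% in PCOS-MV against PCOS. In the same order, 11.8% and 3.92% of the assembly factors were called, and 35.3% and 23.5% of the electron carriers and coenzyme Q genes. For the mitochondrial ribosomal protein genes the shares were 14.7% and 13.3%, and for the carriers of nucleotide exchange and uncoupling 25% and 0%. Of 51 assembly factors, which put the complexes together, 3 were higher and 3 lower in PCOS than in Control (median -0.07), and 2 were higher and 0 lower in PCOS-MV than in PCOS (median 0.02). The calls with the largest differences were Cox20 (-0.66) and Ndufaf4 (-0.61) in the first and Tmem186 (0.32) and Cox10 (0.32) in the second. Of 17 electron carriers and coenzyme Q genes, 3 were higher and 3 lower in PCOS, and 2 were higher and 2 lower in PCOS-MV than in PCOS. Coq8a, an atypical kinase needed to make coenzyme Q, stood at a mean of 15.4 FPKM in Control, 44.9 in PCOS and 18.01 in PCOS-MV (1.49, limma adjusted p = 7.5e-06, then -1.29, limma adjusted p = 3.7e-04), and its paralogue Coq8b at 19.8, 11.9 and 18.3 FPKM (-0.68 and 0.58). Coq10a, which binds coenzyme Q, was lower in PCOS-MV than in PCOS (-0.62). Of 75 mitochondrial ribosomal protein genes, 4 were higher and 7 lower in PCOS, and 8 were higher and 2 lower in PCOS-MV than in PCOS. Among those called, the largest differences were Mrps12 (-0.52) and Mrpl52 (0.46) in the first comparison and Mrpl33 (0.52) and Mrpl57 (0.44) in the second. Over all 75, called or not, differences ran from -0.82 to 0.55 in the first and from -0.79 to 0.52 in the second. Of 4 carriers for nucleotide exchange and uncoupling, 0 were higher and 1, the phosphate carrier Slc25a3, was lower in PCOS (-0.29), and in PCOS-MV against PCOS 0 were called by limma (1 at an unadjusted p under 0.05).

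The next 2 lists also stand beside 27.4% of all genes called in PCOS against Control and 25.7% in PCOS-MV against PCOS. Of 13 regulators of mitochondrial biogenesis, 2 were lower in PCOS (15.4%) and 2 higher in PCOS-MV than in PCOS (15.4%). These were Esrra, a nuclear receptor that drives respiratory chain genes, at a mean of 18.5 FPKM in Control, 10.6 in PCOS and 19.3 in PCOS-MV (-0.75, limma adjusted p = 5.6e-05, then 0.80, limma adjusted p = 0.0022), and the coactivator Ppargc1b at 4.12, 2.73 and 4.19 FPKM (-0.45 and 0.46). Of 13 porins, import receptors and chaperones, 2 were lower in PCOS (15.4%) and 4 higher in PCOS-MV than in PCOS (30.8%). The chaperonin Hspd1 stood at a mean of 531, 225 and 476 FPKM (-1.09, limma adjusted p = 0.044, then 1.04, limma adjusted p = 0.0058), and its partner Hspe1 rose in PCOS-MV over PCOS (0.94). The import receptor Tomm20 fell in PCOS (-0.48).

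Markers of ovarian cell types moved with the groups too. Their calls stand beside 27.4% of all genes called in PCOS against Control and 25.7% in PCOS-MV against PCOS. Luteal markers (6 of 6 called in PCOS against Control, 4 lower and 2 higher) summed to 5384 to 6318 FPKM in Control, 1370 to 2547 in PCOS and 3791 to 9172 in PCOS-MV. Much of this is Star, with means of 2219, 716 and 2054 FPKM. The 2 that rose in PCOS were Lhcgr, at 59.0, 149 and 49.1 FPKM, and Parm1, at 9.41, 15.7 and 13.0 FPKM. In PCOS-MV against PCOS 3 luteal markers were called higher and 1 lower. Theca markers, of which 3 of 5 were higher and 1 lower in PCOS, summed to 88.2 to 154, 1642 to 3235 and 42.8 to 165 FPKM, and granulosa markers, 4 of 7 higher, to 637 to 870, 1079 to 1533 and 582 to 1105 FPKM. Most of the PCOS sums is Cyp17a1 (mean 1190 FPKM) and Insl3 (1032) for theca and Inha (806) for granulosa cells. Lower in PCOS than in Control were Ptch1 (16.6 against 22.8), and, not called, Amh (28.0 against 48.9) and Hsd17b1 (40.8 against 47.7). In PCOS-MV against PCOS 4 of 5 theca and 3 of 7 granulosa markers were called lower and 0 higher. All of these lists were present in every group, as the labelled tissue requires. Of the 6 pericyte markers, 4 were lower in PCOS than in Control and 3 higher in PCOS-MV than in PCOS, with sums of 133 to 150, 90.3 to 130 and 123 to 142 FPKM. Kcnj8 and Notch3 among them changed by -1.36 and -1.22, then by 1.26 and 0.83, beside -0.79 and 0.62 for Cox4i2 and -0.60 and 0.43 for Ndufa4l2, both known from pericytes. Abcc9 went the other way, with a mean of 26.6 FPKM in Control, 39.0 in PCOS and 32.7 in PCOS-MV. In the same order Higd1b stood at 1.60, 1.70 and 1.72 FPKM, and Rgs5 at 49.4, 35.4 and 40.1 FPKM. None of the 6 pericyte markers was at 0, the lowest being Higd1b at 1.34 FPKM or more in every library. Adipocyte markers, 4 of 4 tested lower in PCOS, held Lep and Cidec, which read 0 in at least 1 PCOS library. Of 5 smooth muscle markers 1 was lower and of 5 leukocyte markers 2 were higher in PCOS. The smooth muscle markers summed to 111 to 389 FPKM in Control (median 149), 135 to 172 in PCOS and 112 to 207 in PCOS-MV. Markers of ciliated oviduct epithelium summed to 0.95 to 22.7 FPKM in Control (median 2.59), 0.38 to 0.98 in PCOS and 0.29 to 0.72 in PCOS-MV. Only 1 of these oviduct markers was tested, and it was not called. The part of any of these cell types in the changes of the members was not tested.

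The spread between rats limited the test for some members more than for others. Pooled over the groups, the SD on the log2 scale had a median of 0.18 over the members, as over all genes tested, but exceeded 0.4 for 8 members, Ndufa1, Cox7c, the Uqcrb gene of chromosome 7, Uqcrq, Cox8b, Atp5pf, Ndufb10 and Ndufa4. Ndufa1, a short accessory subunit of complex I with 213 bases listed, read 0.31 FPKM in PCOS replicate 1 and 26.2, 28.4 and 17.5 FPKM in the other PCOS libraries, beside 11.96 to 22.6 FPKM in Control. Its low value in that library is read as a listed value only. Cox7c read 142, 62.4, 54.2 and 22.7 FPKM in Control and 18.7 to 113 FPKM in PCOS-MV, and Atp5pf 31.9 FPKM in PCOS replicate 4 beside 6.45 to 12.7 FPKM in the other PCOS libraries. The median SD was 0.24 for the 24 members under 500 bases, 0.18 for the 34 from 500 to under 1000 bases and 0.15 for the 23 of 1000 bases or more.

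**Figure D5:**
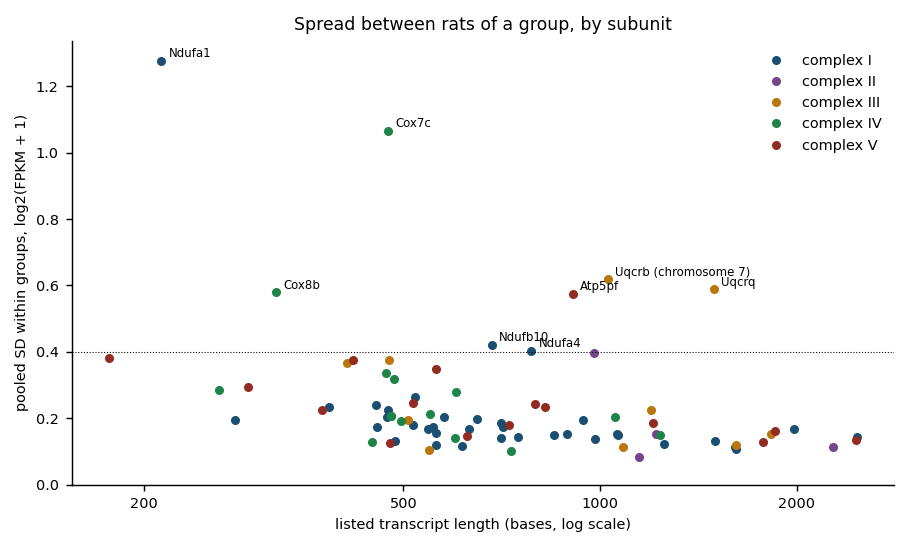
Pooled SD between rats of a group on the log2(FPKM + 1) scale for each of the 81 members, against its listed transcript length in bases on a log axis, coloured by complex. The dotted line at 0.4 separates the 8 named members, and Ndufa1 lies highest at 1.28.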

How the data were processed

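RNA was taken with Trizol from flash-frozen ovaries, and libraries were made with a NEBNext Ultra kit, 1 library per rat and 4 rats per group. The deposited values are FPKM per gene, which the authors made from aligned reads. The study's methods name HISAT2 and featureCounts, while the submitters' processing notes list STAR 2.5.1b and HTSeq 0.6.0. The genome build, and the use of strand in counting, are not given in the sources used here. The table has a line per transcript, 26928 in all, and its FPKM did not differ between lines of a gene, so 1 line was kept for each of 19730 genes. The authors' group means, fold changes and p-values in the same table were not used. Their methods speak of 3 replicates, and the table holds 4 per group, all of which were used.

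FPKM are not counts, so no count model was fitted. Values were taken as log2(FPKM + 1), which understates changes of low genes, and tested with limma 3.58.1 in R 4.3.3 (empirical Bayes with a trend), for each pair of groups separately, over the 13430 genes whose FPKM averaged 1 or more, with Benjamini-Hochberg adjustment over all of them and a threshold of 0.05. The study's own test needs counts. Single members were also tested by the exact two-sided permutation test. SE and 95% intervals are limma's. The scripts were tested on simulated data.

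Low FPKM values fell on regular steps for 27.2% to 30.6% of values, against 7.97% to 8.46% at other spacings, which gave the depth estimate. Whole reads were not recovered. The SD between rats covers sampling as well as biological spread.

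Named members were, in each complex, the 3 called with the largest change in each direction, the 2 with the smallest adjusted p, the tissue isoforms and the catalytic subunits. The values of 1 such member are not reported here, though it is in the counts. From other lists the 2 largest called changes were named. The members and lists were chosen with earlier results of these data known. Promoters were matched by symbol, and 14 members had no match. Another pseudocount, other filters and scalings, 1 model over the 12 libraries, a fit without the trend, a replicate block and each library left out were tried.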

Additional observations from a re-analysis of the deposited data

Results flagged for a closer look

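In 17 of the 297 groups of 4 libraries examined, over the 81 members, the sums of the complexes and the 13 mitochondrial DNA genes in 3 groups, the highest or lowest library lay apart from the other 3 by more than Dixon's 95% critical ratio. Chance gives about 1 in 20, or 14.8. In Control, Atp5mf read 54.2 FPKM in replicate 1 (28.4 to 31.1 in the others) and COX1 4468 FPKM in replicate 3 (5960 to 6106). In PCOS replicate 1, Ndufa4 read 30.7 FPKM (62.4 to 64.0), Ndufa5 43.0 FPKM (53.3 to 53.8) and Ndufv2 68.5 FPKM (65.5 to 65.7). In PCOS replicate 3, Atp5mc3 read 143 FPKM (169.6 to 174.6) and Atp5po 103 FPKM (115 to 117). In PCOS replicate 4, Cox5b read 111 FPKM (89.7 to 92.9).

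In PCOS-MV replicate 1, Sdhb read 191 FPKM (103 to 108), Ndufa10 67.9 FPKM (54.3 to 56.2), Atp5mg 222 FPKM (207.8 to 208.5) and Uqcr10 10.2 FPKM (17.8 to 19.2). In PCOS-MV replicate 3, Atp5pf read 6.04 FPKM (7.99 to 8.38), Atp5f1d 112 FPKM (126 to 128), Atp5md 8.95 FPKM (18.2 to 19.6) and ATP6 286 FPKM (0.08 to 0.09). In PCOS-MV replicate 4, Ndufa6 read 50.4 FPKM (44.1 to 44.6).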

How the results depend on the processing

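Over the settings tried, 3756 results for single members stayed on their side of the threshold, 77 lost it and 43 gained it. The 3756 include members called in neither fit. Of the calls, 7 of 13 in PCOS against Control and 7 of 14 in PCOS-MV against PCOS held whichever library was left out. In every other setting as well, 6 and 7 held. Members not called in the main fit but called in another numbered 14 and 15. Among results called in the main or the other fit, 0 turned in direction. A change of sign in a result called in neither fit was counted as staying. Of the counts and medians, 130 values stayed close to those reported and 14 moved. In PCOS against Control, 15 members were lower after rescaling to TPM in place of 9. Leaving out 1 library gave 1 to 9 members higher, 6 to 13 lower and a median from -0.06 to 0.09. In PCOS-MV against PCOS, lower calls were 2 without the filter on low values and 1 in the model over all 12 libraries, in place of 4. Leaving out 1 library gave 6 to 14 higher, 1 to 7 lower and a median from 0.07 to 0.13. PCOS-MV against Control had 0 calls of members in every setting. With the replicate number as a block, PCOS against Control gave 2 members higher and 8 lower, and PCOS-MV against PCOS 10 and 3. The labels tie no rats by number, so the numbers were not taken as pairs. Deviations of same-numbered libraries correlated between -0.05 and 0.22 over the 3 comparisons. A library correlated best with its own number in 0 of 8, 7 of 8 and 2 of 8 libraries of the 3 comparisons. In PCOS-MV against PCOS, with 7 of 8, the correlations were all positive, from 0.04 to 0.17. Whether libraries of 1 number share a factor there was not tested beyond the fit with the block. The settings for the subunits encoded by mitochondrial DNA were chosen after seeing the data, and gave 5 to 8 lower calls in PCOS-MV against PCOS without leaving out a library. The causes were not tested. With 4 rats per group, members with an SD over 0.4 could not be judged closely, and depth bears most on Cox8b and Ndufa4l2, the lowest members.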
